A study of Homo sapiens with 6 samples.

Results

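Keratins, claudins, desmosome genes and a few other epithelial genes were examined in SKOV3, an established human ovarian cancer cell line, after silencing of the transcription factor KLF5. The set was chosen by name and not by level. It holds every protein-coding gene of the analysed table whose symbol is KRT, CLDN, DSC, DSG, TJP or PKP followed by a number, together with CDH1, EPCAM, OCLN, DSP, JUP, MUC1, ESRP1 and ESRP2, which gave 60 of 29185 genes. Polyadenylated RNA was sequenced from 3 libraries of SKOV3 cells labelled as KLF5 knockdown (sh-KLF5) and 3 libraries of control cells (sh-NC), whose genotype the labels give as WT. Knockdown was made with a pLKO.1-EGFP-Puro lentiviral vector, and stable cells were selected with puromycin. Which hairpin was used, whether the cells were 1 clone or a pool, and whether the 3 libraries of a group came from separate cultures are not given in the sources used here, so the p-values measure the spread between these libraries only. Libraries held 15852319 to 17543896 counted reads in sh-NC and 16009859 to 16871350 in sh-KLF5.

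Keratins are the intermediate filament proteins of epithelial cells and assemble as pairs of 1 type I and 1 type II chain. Desmosomes tie these filaments to the cell border: the cadherins (desmogleins and desmocollins) span the membrane, plakoglobin (JUP) and the plakophilins (PKP) bind them inside the cell, and desmoplakin (DSP) links the plaque to keratin. Tight junctions lie nearer the cell apex, where claudins and occludin seal the space between cells and the ZO proteins (TJP) anchor them to actin.

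KLF5 itself was checked first. Its level fell to 34.8% of the control mean in the sh-KLF5 libraries (log2 fold change -1.53, SE 0.12, limma adjusted p = 2.47e-07). Levels are normalized counts, that is, a gene's reads after division by the size factor of the library. Fold changes and their standard errors (SE) are on the log2(normalized count + 1) scale, sh-KLF5 minus sh-NC, and adjusted p-values are from limma with Benjamini-Hochberg adjustment over the 15803 genes that passed a filter on low counts. A gene was called when its adjusted p was under 0.05 and its log2 fold change was above 1 or below -1. With 3 libraries against 3, an exact two-sided permutation test of a single value cannot go below p = 0.1.

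Epithelial markers stood at very different levels in this line. KRT7, KRT8, KRT17 and KRT18 were abundant, whereas EPCAM and CDH1, the epithelial adhesion molecule and E-cadherin, had 92 to 143 and 112 to 169 reads per library, and KRT19 had 2 to 17. The ovarian carcinoma markers PAX8, ERBB2 and MSLN were present, at mean normalized counts of 352, 1993 and 225.9 in sh-NC. Summed with MUC16, they lay at 2463 to 2835 in sh-NC and 1693 to 2271 in sh-KLF5. MUC16 was called lower (log2 fold change -1.54), and MSLN was lower short of a log2 fold change of -1 (-0.71, limma adjusted p = 0.00868). PAX8 (-0.25, limma adjusted p = 0.407) and ERBB2 (-0.33, limma adjusted p = 0.124) did not pass. Of the markers of other cell types, PTPRC had at most 1 read in a library. The summed fibroblast markers lay at 1063 to 1518 normalized counts in sh-NC and 400.1 to 753 in sh-KLF5. COL1A2, COL3A1 and DCN were called lower, COL1A2 (0, 2 and 3 reads in sh-KLF5) after passing the filter only through its sh-NC level. LUM (log2 fold change -0.45, limma adjusted p = 0.361) and COL1A1 (0.30, limma adjusted p = 0.539) did not pass, and PDGFRB was not tested. The summed leucocyte markers, nearly all CD14, lay at 150.8 to 225.3 and 190.5 to 379.4, and the summed endothelial markers at 73.6 to 88.1 and 46.1 to 84.4. Of the endothelial markers, PECAM1 did not pass (log2 fold change -0.61, limma adjusted p = 0.172), and TEK, with 8, 1 and 1 reads in sh-NC and 17, 11 and 12 in sh-KLF5, was called higher after passing the filter only through its sh-KLF5 level. In bulk RNA, fewer cells of a type and less RNA per cell cannot be told apart, and the part of these marker shifts in the results was not tested. Within groups, libraries deviated from each other along the GC content of genes, most of all sh-KLF5 library 1 (Spearman rho -0.49 across 15798 genes). With that trend removed per library, 7 members were called lower and 2 higher, with 16 at a limma adjusted p under 0.05. Of all 15798 genes in that fit, 553 were called lower and 311 higher. The cause of the trend was not tested. Values without sh-KLF5 library 1 stand beside each call that leaving it out changed.

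Of the 60 genes, 35 passed the filter and were tested, and 25 did not, 22 of them with fewer than 10 reads in every library. Among those tested, 7 were called lower (KRT17, KRT8, KRT16, KRT6A, PKP2, OCLN and MUC1) and 2 were called higher (CLDN1 and ESRP1). KRT6A passed the filter through its sh-NC level, and ESRP1 only through its sh-KLF5 level. Over all genes tested, 5.28% were called, 3.37% lower and 1.9% higher. At an adjusted p under 0.05 with no limit on the fold, 12 were lower and 3 were higher, where the shares over all genes were 6.85% and 6.04%. The 3 sh-KLF5 values lay below all sh-NC values for 13 tested members (15.9% of all genes) and above them for 5 (15.4% of all genes, 31.3% in either direction). Of those 5, ESRP1 and CLDN10 passed the filter only through their sh-KLF5 level. The median log2 fold change was -0.24 over the 35 tested members and -0.0023 over all genes tested, and the 35 are only those expressed enough to test. For the 20 tested members with an adjusted p of 0.05 or more, a difference was not shown, which does not mean that they were equal.

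**Figure D1:**
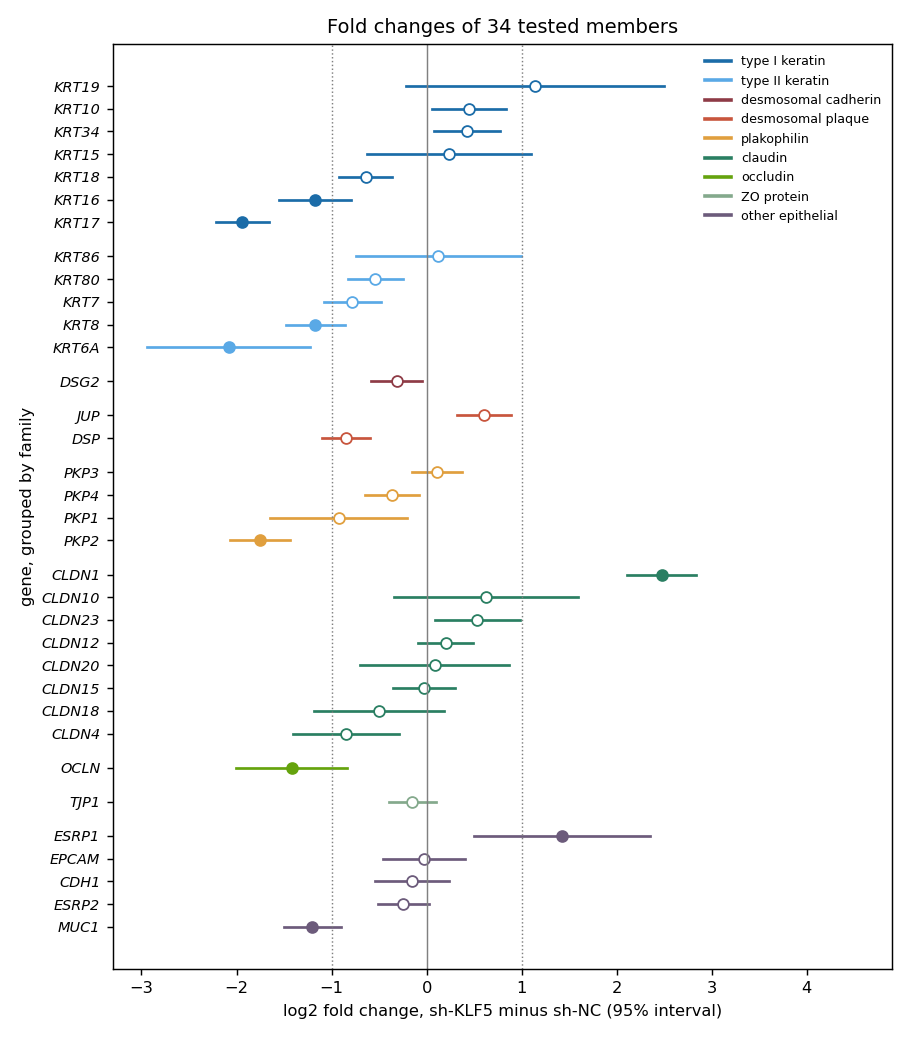
Log2 fold change (sh-KLF5 minus sh-NC) with its 95% interval from limma for 34 of the 35 tested members, grouped by family, with called genes as filled points and dotted lines at 1 and -1. CLDN1 (2.47) lies farthest to the right and KRT6A (-2.08) and KRT17 (-1.94) farthest to the left.

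The sequences upstream of called members are shown because KLF5 binds GC-rich and CACCC-type motifs. Windows of 300 bases (250 before to 50 after a transcription start) came from RefSeq on GRCh38.p14. By symbol, 36 of the 60 genes matched, with 53 windows. Both strands were searched for CACCC and for CCGCCC, and for the E-box CAGGTG, which SNAI and ZEB factors bind. At least 1 match was found in 73.6%, 54.7% and 41.5% of the 53 member windows, where the shares over all 35116 windows were 59.9%, 45.0% and 20.6%. Most of the 53 windows belong to members that were not called. In the 5 windows of members called lower, from KRT8, MUC1 and OCLN, the shares were 60%, 60% and 80%. Of the matched genes, 14 had more than 1 window, and the shares were not tested. The first listed window of each called member whose window lies within 1000 bases of the 5′ end of its gene in the table follows, read 5′ to 3′ on the strand of the gene, with CACCC and CCGCCC, or their reverse complements (GGGTG for the first and GGGCGG for the other), in capitals. No CACCC match overlaps a CCGCCC match in them.
CLDN1 (chr3:190322397-190322696, minus strand): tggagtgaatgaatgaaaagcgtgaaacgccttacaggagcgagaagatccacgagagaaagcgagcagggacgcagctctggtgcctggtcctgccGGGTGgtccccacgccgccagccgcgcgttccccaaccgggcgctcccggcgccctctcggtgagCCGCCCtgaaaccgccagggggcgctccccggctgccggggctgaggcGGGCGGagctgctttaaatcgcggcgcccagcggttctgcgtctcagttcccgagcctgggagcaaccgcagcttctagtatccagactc
MUC1 (chr1:155192866-155193165, minus strand): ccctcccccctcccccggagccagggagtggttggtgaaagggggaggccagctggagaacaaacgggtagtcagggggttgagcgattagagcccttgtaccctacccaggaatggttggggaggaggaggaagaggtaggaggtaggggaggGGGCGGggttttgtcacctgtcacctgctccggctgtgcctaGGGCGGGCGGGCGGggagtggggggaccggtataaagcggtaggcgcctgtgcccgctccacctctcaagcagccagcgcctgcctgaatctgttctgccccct
OCLN (chr5:69492297-69492596, plus strand): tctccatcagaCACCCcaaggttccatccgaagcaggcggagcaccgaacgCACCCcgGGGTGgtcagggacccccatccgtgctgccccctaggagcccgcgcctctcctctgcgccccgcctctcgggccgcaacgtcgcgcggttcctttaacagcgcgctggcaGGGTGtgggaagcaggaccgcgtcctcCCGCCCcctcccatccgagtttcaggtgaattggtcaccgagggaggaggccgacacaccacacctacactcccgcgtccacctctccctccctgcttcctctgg
The window of CLDN1, the gene with the largest rise, held 1 CACCC and 2 CCGCCC matches and no CAGGTG. That of MUC1, which fell, held 4 CCGCCC matches, of which 3 overlap each other, and 2 CAGGTG matches. That of OCLN, which fell, held 4 CACCC matches, 1 CCGCCC match and 1 CAGGTG match. Matches thus stood in windows of genes that moved either way, and a match describes letters only, not a bound site.

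Several keratins fell, among them the 4 most abundant. Of 25 keratin genes, 12 were tested and 13 were too low to test. Of the 12, 4 were called lower, where 3.37% of all genes were, and 7 were lower at an adjusted p under 0.05, where 6.85% of all genes were. None was higher by that test, for which the share over all genes was 6.04%, although the log2 fold changes of the other 5 were positive, from 0.12 (KRT86) to 1.14 (KRT19). The median log2 fold change of the 12 was -0.59. Keratin reads took 0.964% to 1.15% of each sh-NC library and 0.334% to 0.428% of each sh-KLF5 library, so the groups did not overlap. KRT17, KRT7, KRT8 and KRT18 held 98.8% to 98.9% of keratin reads in sh-NC and 97.4% to 97.8% in sh-KLF5.

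KRT17, a type I keratin of basal and wounded epithelium, was the most abundant member of the whole set per length in both groups. It had 127500, 104180 and 124680 normalized counts in the sh-NC libraries and 26437, 32431 and 34174 in the sh-KLF5 libraries. Every sh-KLF5 library was far below every control library, and the mean fell to 26.1% of the control (log2 fold change -1.94, SE 0.13, limma adjusted p = 7.45e-08). Its share of keratin reads was 65.7% to 67.9% in sh-NC and 47.2% to 51.2% in sh-KLF5. The ratio of KRT17 to KRT7 per length, which cancels the library factor, was 4.45 to 5.38 in sh-NC and 1.97 to 2.59 in sh-KLF5. KRT17 thus differed between groups by more than KRT7 did, although KRT7 fell as well.

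KRT16 and KRT14 lie beside KRT17 in the type I cluster of chromosome 17 (GRCh38, KRT14 at chr17:41582279-41586921, KRT16 at chr17:41609778-41615899 and KRT17 at chr17:41619441-41624842). KRT16, a keratin of stressed and fast-growing epidermis, had 436.7, 307.4 and 422.3 normalized counts in sh-NC and 142.7, 203.8 and 167.4 in sh-KLF5. The groups were separate, and its log2 fold change was -1.18 (SE 0.18, limma adjusted p = 0.000256). KRT14, a keratin of basal cells, had 28, 18 and 9 reads in sh-NC and 0, 2 and 5 in sh-KLF5, too few for the filter. Without the filter it would be called (log2 fold change -2.75, limma adjusted p = 0.00023), and without sh-KLF5 library 1 it passed the filter and was called (-2.06, limma adjusted p = 0.0215). It was called as well without sh-KLF5 library 2 (-2.83), sh-KLF5 library 3 (-3.35) or sh-NC library 3 (-3.11). In each of these fits with a library left out, KRT14 passed the filter only through its sh-NC level. The 3 genes are close in sequence, so reads may be shared or lost between them, and the levels of KRT14 and KRT16, far below that of KRT17, are uncertain for that reason. KRT17 pseudogenes held at most 14 reads in a library.

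The type II keratins were measured next. KRT6A, a stress keratin that pairs with KRT16, had 48.4, 54.2 and 36.1 normalized counts in sh-NC and 5.1, 14.6 and 13.0 in sh-KLF5, with no overlap. Its log2 fold change was -2.08 (SE 0.40, limma adjusted p = 0.00209). KRT6A had 5, 15 and 13 reads in sh-KLF5 and passed the filter through its sh-NC level. Its near copy KRT6B had at most 1 read. KRT8, the main type II keratin of simple epithelia, had 23274, 19441 and 22732 normalized counts in sh-NC and 7564, 10397 and 11491 in sh-KLF5. All sh-KLF5 values were below the controls, with the lowest in library 1 (log2 fold change -1.17, SE 0.15, limma adjusted p = 4.35e-05). Without sh-KLF5 library 1 the log2 fold change was -0.99, just short of the fold threshold, with a limma adjusted p of 9.4e-07. KRT7, a simple epithelial keratin of ducts and of the Mullerian tract, had 30990, 28708 and 36613 normalized counts in sh-NC and 17131, 16396 and 22724 in sh-KLF5. It fell without reaching the fold threshold (log2 fold change -0.78, SE 0.14, limma adjusted p = 0.00112). KRT80, a type II keratin of differentiating epithelium, had 1159, 1093 and 1195 against 718, 700 and 980 normalized counts. Its groups were separate too (log2 fold change -0.54, SE 0.14, limma adjusted p = 0.0141), but its adjusted p was 0.0574 without sh-NC library 1, 0.078 without sh-NC library 3 and 0.0748 without sh-KLF5 library 2.

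KRT18, the type I partner of KRT8, fell less than KRT8 did. It had 4075, 3255 and 3759 normalized counts in sh-NC and 2006, 2727 and 2398 in sh-KLF5, with a log2 fold change of -0.64 (SE 0.13, limma adjusted p = 0.00343). The KRT8 to KRT18 ratio per length was 2.67 to 2.83 in sh-NC and 1.76 to 2.24 in sh-KLF5. KRT8 (chr12:52897187-52949954, minus strand) and KRT18 (chr12:52948871-52952901, plus strand) overlap over 525 exonic bases, 16.3% of KRT18 and 7.63% of KRT8, and whether reads were counted by strand is not given in the sources used here. KRT7 shares 6.89% of its exonic bases with the antisense gene KRT7-AS, which was called lower too (log2 fold change -1.09, limma adjusted p = 0.000205). The 18 KRT8 pseudogenes held 137 to 228 reads per library in all and the 20 KRT18 pseudogenes 35 to 62, small beside the genes themselves.

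**Figure D2:**
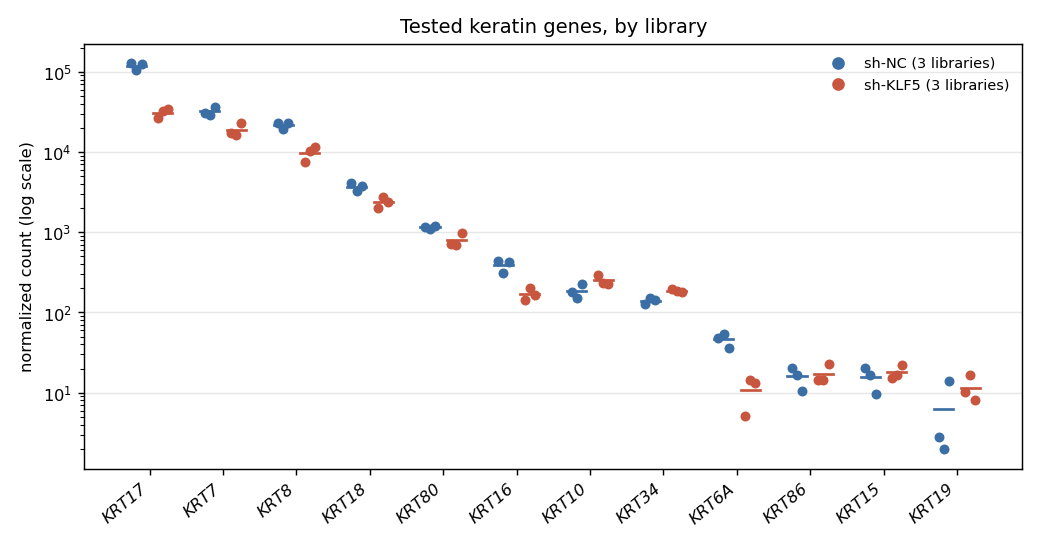
Normalized count (log axis) of the 12 tested keratin genes in each library, with sh-NC in blue, sh-KLF5 in red and bars at group means. KRT17, KRT7, KRT8, KRT18, KRT80, KRT16 and KRT6A are lower in all sh-KLF5 libraries, KRT34 is higher in all of them, and the other 4 overlap.

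The remaining tested keratins did not pass the test. KRT34, a hair keratin, had 126.6, 149.8 and 141.1 normalized counts in sh-NC and 193.7, 186.3 and 181.5 in sh-KLF5, which did not overlap, but its limma adjusted p was 0.103 (log2 fold change 0.43, SE 0.16). KRT10, a keratin of suprabasal epidermis, had 181.6, 149.8 and 227.1 against 296.6, 235.8 and 223.6 normalized counts, which overlapped (log2 fold change 0.44, SE 0.18, limma adjusted p = 0.128). KRT15, KRT19 and KRT86 had 2 to 23 reads in each library. At such counts only a large change could be seen. Among the untested keratins, KRT4 had 2 to 3 reads in sh-NC and KRT5 had 1 to 3, and both had 0 reads in every sh-KLF5 library. A count of 0 there allows up to 3 reads (0.178 to 0.187 CPM, reads scaled to the library total), so that no fold is given.

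Summed per length, as RPKM (reads scaled to exon length and library total), the type I keratins went from 2390 ± 245 (SD, n = 3) in sh-NC to 667 ± 79.9 in sh-KLF5. The type II keratins went from 685 ± 63.0 to 377 ± 56.5. The ratio of type I to type II was 3.30 to 3.76 in sh-NC and 1.60 to 2.02 in sh-KLF5. The balance between the 2 keratin types was therefore nearer to even in every sh-KLF5 library, and since KRT17 makes up most of the type I sum, these ratios follow KRT17. On chromosome 12, 6 of 13 keratin genes were tested and 2 were called lower, and on chromosome 17, 6 of 12 were tested and 2 were called lower. Of all genes tested, 3.37% were called lower.

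Desmosome genes did not move as 1 block. Of 8 genes, 7 were tested, PKP2 was called lower, DSP was lower and JUP higher at an adjusted p under 0.05, and 4 did not pass. Of all genes tested, 3.37% were called lower, and 6.85% were lower and 6.04% higher at an adjusted p under 0.05. The median log2 fold change of the 7 was -0.36. In the membrane, DSG2, the desmoglein of simple epithelia, had 3994, 4257 and 4385 normalized counts in sh-NC and 4078, 3078 and 3097 in sh-KLF5. Library 1 lay within the control range and the other 2 below it (log2 fold change -0.31, SE 0.13, limma adjusted p = 0.124). Without sh-KLF5 library 1 the log2 fold change was -0.45 (limma adjusted p = 0.00151), and with the trend of each library along GC content removed the adjusted p was 0.0245. DSC2, the only desmocollin in the table, had at most 2 reads in a library.

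The plaque genes differed among themselves. PKP2, a plakophilin of simple epithelia and heart, had 434.8, 387.2 and 417 normalized counts in sh-NC and 124.3, 128.1 and 113.3 in sh-KLF5. Replicates were close and the groups far apart (log2 fold change -1.75, SE 0.15, limma adjusted p = 7.78e-07), and the mean was 29.5% of the control. PKP3, which is found in most desmosomes, had 1815, 1873 and 2039 against 1757, 2175 and 2296 normalized counts, which overlapped (log2 fold change 0.11, 95% interval -0.15 to 0.38, limma adjusted p = 0.611). The PKP3 to PKP2 ratio per length was 7.76 to 9.10 in sh-NC and 26.3 to 37.7 in sh-KLF5. PKP1, a plakophilin of stratified epithelia, had 16 to 55 reads per library (log2 fold change -0.92, limma adjusted p = 0.0893), and it would be called without sh-KLF5 library 1 (-1.16, limma adjusted p = 0.0261). PKP4, a relative found at several kinds of junction, had 1537, 1581 and 1643 against 1072, 1144 and 1527 normalized counts. Its groups did not overlap, yet its limma adjusted p was 0.0895 (log2 fold change -0.36, SE 0.13). Without sh-KLF5 library 3, the nearest to the controls, it was 0.0116, and in a fit blocked by replicate number it was 0.0332.

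DSP and JUP moved in opposite directions. DSP had 4248, 4143 and 3914 normalized counts in sh-NC and 1997, 2362 and 2493 in sh-KLF5, with separate groups (log2 fold change -0.85, SE 0.12, limma adjusted p = 0.000107). JUP, which also serves adherens junctions, had 1750, 1591 and 1887 in sh-NC and 2329, 3228 and 2471 in sh-KLF5, all above the controls (log2 fold change 0.61, SE 0.13, limma adjusted p = 0.00549). Without sh-NC library 2 the adjusted p of JUP was 0.0541. The JUP to DSP ratio per length was 0.784 to 0.984 in sh-NC and 2.02 to 2.79 in sh-KLF5, so JUP was below DSP in every control library and above it in every sh-KLF5 library.

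**Figure D3:**
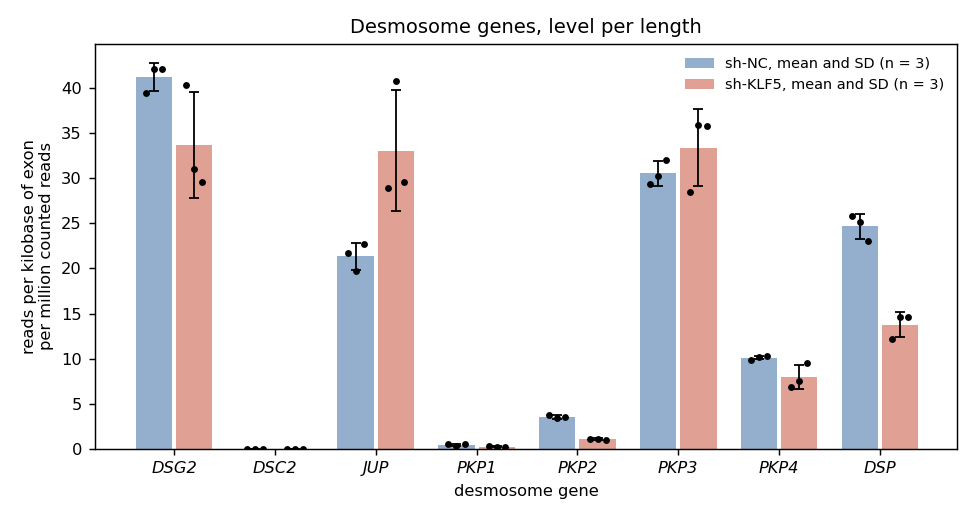
Level of the 8 desmosome genes per length (RPKM) as group means with SD (n = 3) and a point for each library. DSP and PKP2 are lower and JUP is higher in every sh-KLF5 library, while PKP3 overlaps between the groups.

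The tight junction genes held the largest rise of the set. Of 22 claudin, occludin and ZO genes, 11 were tested, with CLDN1 called higher, OCLN called lower and CLDN4 lower at an adjusted p under 0.05. The shares over all genes tested were 1.9% called higher, 3.37% called lower and 6.85% lower at an adjusted p under 0.05. CLDN1 (chr3:190305701-190322475, minus strand), a sealing claudin, had 580.1, 421.7 and 403.2 normalized counts in sh-NC and 3308, 2075 and 2461 in sh-KLF5. The lowest sh-KLF5 library was several times the highest control, and the mean was 5.58-fold higher (log2 fold change 2.47, SE 0.17, limma adjusted p = 8.35e-08). Without sh-KLF5 library 1, the highest, it was 2.29. Against CLDN12, the other abundant claudin, CLDN1 went from a ratio per length of 0.831 to 1.14 in sh-NC to 4.21 to 4.77 in sh-KLF5. Other genes on the same strand, GTPBP10 and CDK14 among them, overlap 16.3% of the exonic bases of CLDN12. Whether CLDN12 reads were lost there was not tested. CLDN1 was near CLDN12 in the controls and was the leading claudin in all 3 sh-KLF5 libraries. The window at its start printed with those of MUC1 and OCLN held both a CACCC and CCGCCC matches.

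Of the other claudins only CLDN4 had an adjusted p under 0.05. CLDN4, a claudin of simple and glandular epithelia, had 52.1, 54.2 and 53.1 normalized counts in sh-NC and 25.5, 31.0 and 31.1 in sh-KLF5. Its groups were separate, but the adjusted p was near the threshold (log2 fold change -0.85, SE 0.26, limma adjusted p = 0.0443) and was 0.0607 to 0.152 when any 1 of the 6 libraries was left out. CLDN23 had a log2 fold change of 0.53 (limma adjusted p = 0.114) and CLDN18 of -0.50 (0.354). CLDN12 (0.20), CLDN15 (-0.03), CLDN20 (0.08) and CLDN10 (0.63) were also short of the test, and 46.1% of the exonic bases of CLDN10 are overlapped by DZIP1 on the other strand. CLDN10 had 9, 9 and 6 reads in sh-NC and 13, 11 and 14 in sh-KLF5, and passed the filter only through its sh-KLF5 level. CLDN3, often used as an ovarian carcinoma marker, had 6, 7 and 0 reads in sh-NC and 0, 1 and 1 in sh-KLF5, too few to compare.

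OCLN (chr5:69492292-69558104, plus strand), which encodes occludin, had 96.8, 67.0 and 100.8 normalized counts in sh-NC and 43.8, 27.2 and 27.1 in sh-KLF5. No values overlapped, and OCLN fell by 1.42 on the log2 scale (SE 0.28, limma adjusted p = 0.00212). TJP1, which encodes ZO-1, had 4782, 5018 and 4633 against 4472, 3847 and 4736 normalized counts, which overlapped (log2 fold change -0.15, 95% interval -0.40 to 0.10, limma adjusted p = 0.452). TJP3 had 4 to 11 reads and was not tested.

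**Figure D4:**
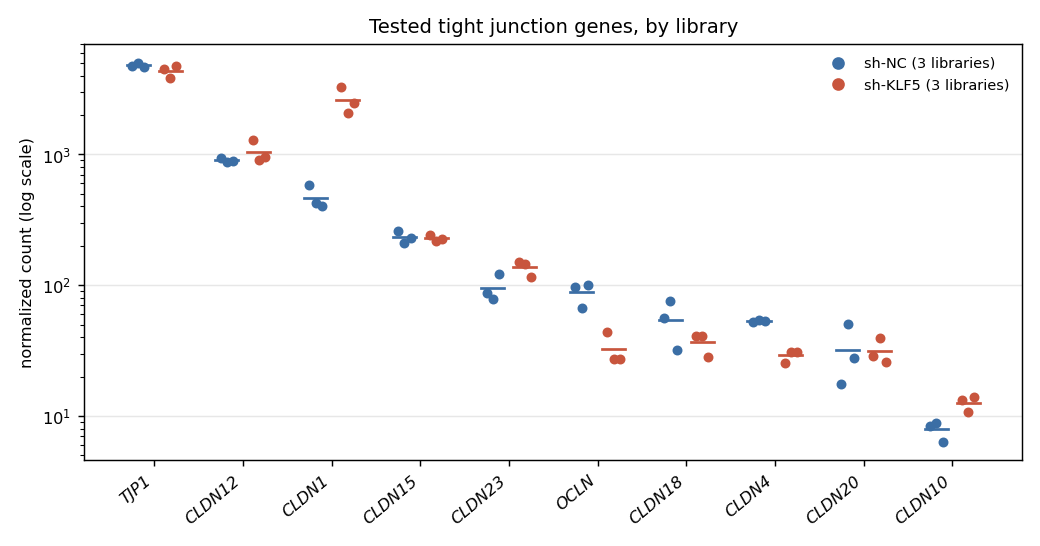
Normalized count (log axis) of 10 of the 11 tested claudin, occludin and ZO genes in each library, with sh-NC in blue, sh-KLF5 in red and bars at group means. CLDN1 rises above CLDN12 in all 3 sh-KLF5 libraries, OCLN and CLDN4 lie below the controls, and TJP1 overlaps.

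Among the genes taken singly, MUC1 was called lower and ESRP1 higher. MUC1 (chr1:155185824-155192916, minus strand), a membrane mucin of the apical surface, had 559.6, 597.1 and 592.1 normalized counts in sh-NC and 215.1, 284.3 and 263.7 in sh-KLF5. The groups were separate (log2 fold change -1.20, SE 0.14, limma adjusted p = 2.06e-05). ESRP1 and ESRP2 are splicing factors of epithelial cells. ESRP1 had 7, 9 and 7 reads in sh-NC and 33, 16 and 20 in sh-KLF5 (log2 fold change 1.42, SE 0.44, limma adjusted p = 0.0418). This call rests on few reads: the limma adjusted p was 0.0737 to 0.15 when any 1 library other than sh-KLF5 library 2 was left out, and 0.0522 with a pseudocount of 0.1. ESRP1 also passed the filter only through its sh-KLF5 level. ESRP2 had 1130, 972 and 1006 against 772, 880 and 978 normalized counts, with an overlap, and did not pass (log2 fold change -0.24, 95% interval -0.51 to 0.02, limma adjusted p = 0.233). Per length, ESRP2 exceeded ESRP1 by 96.0 to 152-fold in sh-NC and 20.1 to 49.7-fold in sh-KLF5, so ESRP2 was the higher of the pair in every library. CDH1 had 157.4, 151.7 and 144.3 normalized counts in sh-NC and 135.6, 164 and 112.3 in sh-KLF5 (log2 fold change -0.15, 95% interval -0.54 to 0.24, limma adjusted p = 0.645). EPCAM had 122.9, 140.9 and 97.6 against 108, 106.7 and 138.4 (log2 fold change -0.03, 95% interval -0.46 to 0.40, limma adjusted p = 0.954). Both overlapped, and these intervals leave room for modest shifts in either direction.

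Genes outside the set that work with these junctions were counted from lists. The shares over all genes tested were 3.37% called lower and 1.9% called higher, and 6.85% lower and 6.04% higher at an adjusted p under 0.05. Of 9 tested adherens junction partners, 2 were called lower, P-cadherin CDH3 (log2 fold change -1.29) and the nectin NECTIN3 (-1.78), and the median was -0.12. CTNNA1, CTNNB1 and CTNND1, the catenins, did not pass (-0.02, 0.03 and -0.12). Of 13 tested tight junction partners, the adhesion molecule JAM3 was called lower (log2 fold change -3.09, limma adjusted p = 2.28e-06) and the median was -0.10. At an adjusted p under 0.05 with no limit on the fold, 4 adherens junction partners and 4 tight junction partners were lower and none higher. Those short of the fold threshold were AFDN (-0.60, limma adjusted p = 0.00221), NECTIN1 (-0.45, 0.0379), CXADR (-0.52, 0.0252), PATJ (-0.47, 0.0226) and LSR (-0.44, 0.0401). Of 6 tested plakins and cornified envelope genes, periplakin PPL was called lower (-1.75, limma adjusted p = 3.38e-07), with a median of -0.33, and of 6 tested epithelial surface genes MUC16 was called lower (-1.54), with a median of -0.28. The surface gene MAL2 was lower short of the fold threshold (-0.51, limma adjusted p = 0.0245). Neither of the 2 tested epithelial transcription factors, EHF (-0.46) and GRHL1 (-0.64), passed. Among 6 transcription factors of epithelial-mesenchymal transition, SNAI2 was called higher (log2 fold change 1.04) and TWIST1 lower (-2.09), and SNAI1 was higher short of the fold threshold (0.58, limma adjusted p = 0.00841). Of 5 tested mesenchymal markers, VIM (-5.30), SPARC (-5.79) and S100A4 (-2.18) were called lower. SPARC, with 3, 3 and 0 reads in sh-KLF5, passed the filter only through its sh-NC level. Fibronectin FN1 was higher short of the fold threshold (0.63, limma adjusted p = 0.00162), and CDH11 had a log2 fold change of 0.54 (limma adjusted p = 0.0689).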

How the data were processed

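RNA of 6 SKOV3 libraries (3 sh-KLF5, 3 sh-NC) was analysed, with groups taken from the sample labels. The authors deposited 1 table with a normalized signal per gene and library (reads divided by 1 factor per library), the authors' group means of it, and their own log2 fold changes and p-values, which were not used. The submitters' processing notes name HISAT2 2.0.5, featureCounts 1.5.0-p3, DESeq2 1.20.0 and hg38, and the counting options are not given in the sources used here. All 29185 genes (100%) had the coordinates of GENCODE 29, which gave exon lengths and overlaps.

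Reads were recovered as multiples of the smallest nonzero value of each library, which gave whole numbers for 100% of the values (within 0.001). Intervals and limits from reads cover counting error only. Groups were compared with limma 3.58.1 (trend, robust) in R 4.3.3 on log2(normalized count + 1) after filterByExpr of edgeR (minimum count 10). Fold changes of low genes are understated on this scale. On the recovered reads, the quasi-likelihood test of edgeR 4.0.16 called 529 genes lower and 307 higher and DESeq2 1.42.0 called 528 and 307, against 533 and 301 by limma. On simulated counts for this comparison (15752 genes, log2 fold changes of 2), limma recovered 199 of 199 changed genes with 1 false call. The changed genes excluded those with low counts, and no GC trend was simulated. The simulation therefore does not cover smaller folds, low counts or that trend. No pair of libraries within a group differed by as little as the sampling noise (chi-square per degree of freedom 4.70 to 33.7).

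The members and the gene lists were chosen with earlier results of these data known. Named genes were all called members, the genes of the set given singly by symbol, every DSC, DSG, TJP and PKP gene, the 8 most abundant keratins and claudins, called members of the lists, KLF5, and neighbours or copies that could share reads. A few markers of the lists were not analysed here, and the values of 1 tested member are not reported here. Protein sequences planned for close paralogs were not used here. KRT17, KRT16, KRT6A, PKP2 and ESRP1 had no window shown, nor had KRT8, whose window lies 23235 bases from the 5′ end of its gene in the table. Alternatives were other tools, scalings, pseudocounts and filters, a replicate block and leaving out each library. The removal of the GC trend per library was added after seeing the data. Figures were drawn with matplotlib 3.10.9.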

Additional observations from a re-analysis of the deposited data

How the results depend on the processing

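The counts of called members were 7 lower and 2 higher, and edgeR, DESeq2, the other scalings and the replicate block gave counts within 1.5 times these. Testing for folds beyond 1 on the log2 scale (treat) left 2 members lower (KRT17 and PKP2), 1 higher (CLDN1) and 3 at an adjusted p under 0.05, and 248 lower and 44 higher of all genes. KRT8, KRT16, KRT6A, OCLN, MUC1 and ESRP1 did not pass that test, so a change beyond that fold was not shown for them. ESRP1 was lost, leaving 1 member higher, with a pseudocount of 0.1, and likewise 1 with the GC trend removed without sh-KLF5 replicate 1. With no filter 811 of all genes were lower. A minimum of 10 reads in each library left ESRP1 and KRT6A untested, with 6 members lower, 1 higher and 13 at an adjusted p under 0.05. Of all genes, 231 were lower and 241 higher, so that 48.9% of calls were lower against 63.9% before, since genes low in 1 group leave the test. Leaving out each library gave 7 to 8 members lower, 1 to 2 higher and 12 to 16 at an adjusted p under 0.05, and 461 to 620 genes lower and 253 to 337 higher among all genes. Some uncalled members changed sign: CLDN15 ranged from -0.098 to 0.057 (0.011 without sh-KLF5 replicate 2) on the log2 scale and CLDN20 from -0.26 to 0.47 when libraries were left out (CLDN20 -0.018 with edgeR and -0.019 with DESeq2), EPCAM from -0.17 to 0.092 (0.0023 with the GC trend removed, 0.059 also without sh-KLF5 replicate 1), and PKP3 was -0.0056 with the GC trend removed. The cause was not tested. Replicate numbers did not pair the libraries (correlations of 0.059, 0.033 and 0.050), and the replicate block called 567 genes lower and 327 higher. Depth limits the 25 untested members and those with under about 20 reads.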
